A study of Mus musculus with 36 samples.

Results

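Mitochondrial fatty acid oxidation was followed in mouse liver through 35 genes, taken by symbol from the gene names of the array files and each read from its brightest probe. All 35 were on the array among 37325 genes, and all 35 were well above background on every array of every group, so that the filter on dim probes, which kept 24251 genes, removed none of them. The livers came from 36 male mice, C57Bl/6J in the series title, with 1 Agilent one-colour array per mouse and 6 mice in each of 6 groups. AAKO mice lacked adipose triglyceride lipase (ATGL), the enzyme that starts triglyceride breakdown, in white adipose tissue, and CTRL mice were their controls; how the deletion was made, and the age of the mice, are not given in the sources used here. Each genotype was studied fed, after a 24 h fast, and fed with 3 mg/kg of CL316243, which activates beta 3 adrenergic receptors and so stimulates adipocyte lipolysis. The agonist was given by gavage in carboxymethyl cellulose at Zeitgeber time 10, and all groups were on a standard diet and were killed at Zeitgeber time 16. The labels place fed mice in experiment 2 and all other mice in experiment 1, so that every comparison with fed mice also compares experiments and the 2 cannot be told apart there; a shift shared by both genotypes cancels in the interactions. Gavage is recorded for the CL316243 groups only, and its part in their differences from the other conditions was not tested. The deletion is in fat, so the liver level of the lipase does not check the genotype labels.

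Fatty acids released from adipose tissue reach the liver, where they are activated to acyl-CoA by synthetases, passed into mitochondria as carnitine esters, and shortened by repeated cycles of dehydrogenation, hydration, a second dehydrogenation and thiolysis. The electrons of the first step go through the electron transfer flavoprotein to the respiratory chain, and the acetyl-CoA formed in a fast is largely turned into ketone bodies. Many genes of this pathway are known targets of PPARα, a nuclear receptor that binds fatty acids.

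Levels are log2 signals after subtracting each array's own 75th percentile, so 0 is the brightness of that percentile, and a difference of 1 is a doubling. Levels of different genes come from different probes and are not compared. A gene is called when its limma p-value, adjusted by Benjamini-Hochberg over all 24251 genes, is under 0.05. Between 58.5% and 65.7% of probes per array were well above background. On the first principal component, which held 41.9% of the variance, CTRL fasted replicate 2 lay at 81.3 and the other CTRL fasted arrays at 16.8 to 29.0, while AAKO fasted arrays lay at 103 to 111. AAKO CL316243 replicate 6 carried skeletal muscle transcripts: Ckm was at 1.45 there and was well above background on none of the other 35 arrays, and the summed level of the 4 muscle markers ran from -2.04 to 6.40 in that group against -2.21 to -1.35 in the other groups. All 6 hepatocyte markers were well above background on all arrays, with summed levels between 11.25 and 11.63. In fasted mice, 4 of 5 neutrophil markers were called higher in AAKO than in CTRL liver (summed level 2.65 to 6.40 against -0.14 to 5.76), and hepatocyte markers were called higher for 2 and lower for 4 of 6. Of all genes, 21.3% were called higher and 28.0% lower in that comparison. Summed levels of the 4 stellate cell markers ran from 6.365 to 6.772 in fasted AAKO and from 6.043 to 6.361 in fasted CTRL mice. Those of the 4 T cell markers ran from 4.93 to 5.19 and from 5.47 to 5.81 in the same order. Neither of these lists overlapped between the fasted genotypes. Ucp1, the defining marker of brown fat, was well above background on no array, while the summed level of the 3 brown fat markers (Ucp1, Cidea, Elovl3) ran from 1.23 to 2.46 in fasted AAKO, 4.02 to 5.08 in fasted CTRL, 3.82 to 4.97 in treated AAKO and 4.91 to 5.48 in treated CTRL mice. Summed levels of the 5 white adipocyte markers lay between -0.93 and 0.15. Fewer cells of a type and less RNA per cell cannot be told apart in such bulk samples, and the part of these markers in the results was not tested.

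A pair of members shares the stretch between their start sites, which is shown because they encode both subunits of 1 enzyme. Hadha and Hadhb, the alpha and beta subunits of the mitochondrial trifunctional protein, start back to back on chromosome 5, with 272 bases between the annotated starts at 30154980 (Hadha, minus strand) and 30155253 (Hadhb, plus strand). The stretch chr5:30154981-30155252 of GRCm38.p6, from RefSeq, reads on the plus strand, with both GGGCGG boxes in capitals:
Hadha-Hadhb: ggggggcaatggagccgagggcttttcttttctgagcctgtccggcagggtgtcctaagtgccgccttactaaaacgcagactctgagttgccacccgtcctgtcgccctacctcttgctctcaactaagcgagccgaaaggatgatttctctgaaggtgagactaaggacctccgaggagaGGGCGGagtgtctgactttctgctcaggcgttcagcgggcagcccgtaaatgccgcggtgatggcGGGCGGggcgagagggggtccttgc
Its GC content was 60.3%. GGGCGG, searched on both strands, stood 2 times in it and CCAAT not at all. RefSeq windows matched 30 of the 35 members by symbol, in 31 windows; Acaa2, Acad9, Cpt1b, Crat and Decr1 had no entry. Of these 31 windows, the 250 bases before the start held GGGCGG in 19 (61.3%, against 32.7% of all 32841 windows) and CCAAT in 14 (45.2%, against 33.8%). The DR1 element bound by PPARα with its partner RXR is a direct repeat of AGGTCA with 1 base between the copies. With at most 2 mismatches in its 12 fixed bases, on either strand, it was found in 2 of 31 member windows (6.45%) and in 1063 of all windows (3.24%). Both matches are shown 5′ to 3′ with the DR1-like stretch in capitals, at chr7:140116483-140116512 (minus strand) and chr9:55512299-55512328 (plus strand) of GRCm38.p6:
Echs1: gcccgctcAGGTCACGGGTCCaccccttaa
Etfa: cttgggagtAGGGCAAAGGTAAgggtgtgc
Echs1 and Etfa are described below with the other members.

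The 7 activating enzymes, the acyl-CoA synthetases, moved in different directions. In what follows means are in the order fed, fasted and CL316243, over 6 mice each, with the range of the 6 SDs. Acsl1, the main long-chain acyl-CoA synthetase of hepatocytes, averaged 6.99, 8.07 and 7.24 in CTRL and 6.77, 6.89 and 5.60 in AAKO mice (SD 0.233 to 0.316). Acsl3, a synthetase of the endoplasmic reticulum and lipid droplets, averaged 0.01, -1.75 and -0.08 in CTRL and 0.18, -2.12 and 0.32 in AAKO mice (SD 0.265 to 0.558), so that both fasted groups lay below the other groups. Acsl4, which prefers arachidonic acid, averaged 3.74, 3.30 and 3.39 in CTRL and 4.13, 4.69 and 3.84 in AAKO mice (SD 0.155 to 0.254), with the AAKO mean above the CTRL mean in each condition. Acsl5, a synthetase of mitochondria and endoplasmic reticulum, averaged 3.61, 3.55 and 4.09 in CTRL and 3.83, 2.77 and 3.44 in AAKO mice (SD 0.176 to 0.270). The medium-chain synthetase gene Acsm1 averaged 4.61, 3.81 and 4.75 in CTRL and 4.70, 3.59 and 4.58 in AAKO mice (SD 0.0686 to 0.317). Its relative Acsm3 averaged 3.44, 3.50 and 3.11 in CTRL and 3.17, 2.44 and 2.96 in AAKO mice (SD 0.0941 to 0.241). Acsm5, of the same family, averaged 3.07, 2.35 and 2.92 in CTRL and 3.01, 1.36 and 2.49 in AAKO mice (SD 0.121 to 0.253), with the lowest mean in fasted AAKO liver.

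The carnitine system was next, with transporters and transferases on both mitochondrial membranes. Slc22a5, the plasma membrane carnitine transporter OCTN2, averaged 1.81, 3.84 and 3.09 in CTRL and 1.58, 2.64 and 1.93 in AAKO mice (SD 0.148 to 0.376). Cpt1a, the liver form of the outer membrane carnitine palmitoyltransferase and the controlled step of entry, averaged 5.40, 6.47 and 6.15 in CTRL and 4.96, 6.30 and 5.82 in AAKO mice (SD 0.0646 to 0.273). Its probe lies at chr19:3385374-3385433 of mm9, the build of the array files, which do not say whether a probe is in a coding exon. Cpt1b, the muscle form of the same enzyme, averaged -3.06, -0.78 and -2.85 in CTRL and -3.05, -1.95 and -2.79 in AAKO mice (SD 0.152 to 0.956). Slc25a20, the carnitine-acylcarnitine exchanger of the inner membrane, averaged 1.62, 2.60 and 1.84 in CTRL and 1.36, 0.98 and 0.86 in AAKO mice (SD 0.116 to 0.286). Cpt2, which turns acylcarnitine back into acyl-CoA inside the mitochondrion (probe at chr4:107576571-107576610 of mm9), averaged 5.71, 6.40 and 6.07 in CTRL and 5.57, 5.11 and 5.26 in AAKO mice (SD 0.0776 to 0.248). Crat, the carnitine acetyltransferase, averaged 1.65, 4.39 and 2.89 in CTRL and 1.82, 2.64 and 0.65 in AAKO mice (SD 0.163 to 0.500). Crot, the peroxisomal carnitine octanoyltransferase, which hands shortened acyl chains on to mitochondria, averaged 4.10, 5.54 and 5.85 in CTRL and 3.99, 3.41 and 4.99 in AAKO mice (SD 0.157 to 0.368). Of these genes Cpt1a kept a fasted AAKO mean close to the fasted CTRL mean, and the others had a fasted AAKO mean below it, by 1.16 (Cpt1b) to 2.13 (Crot).

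**Figure D1:**
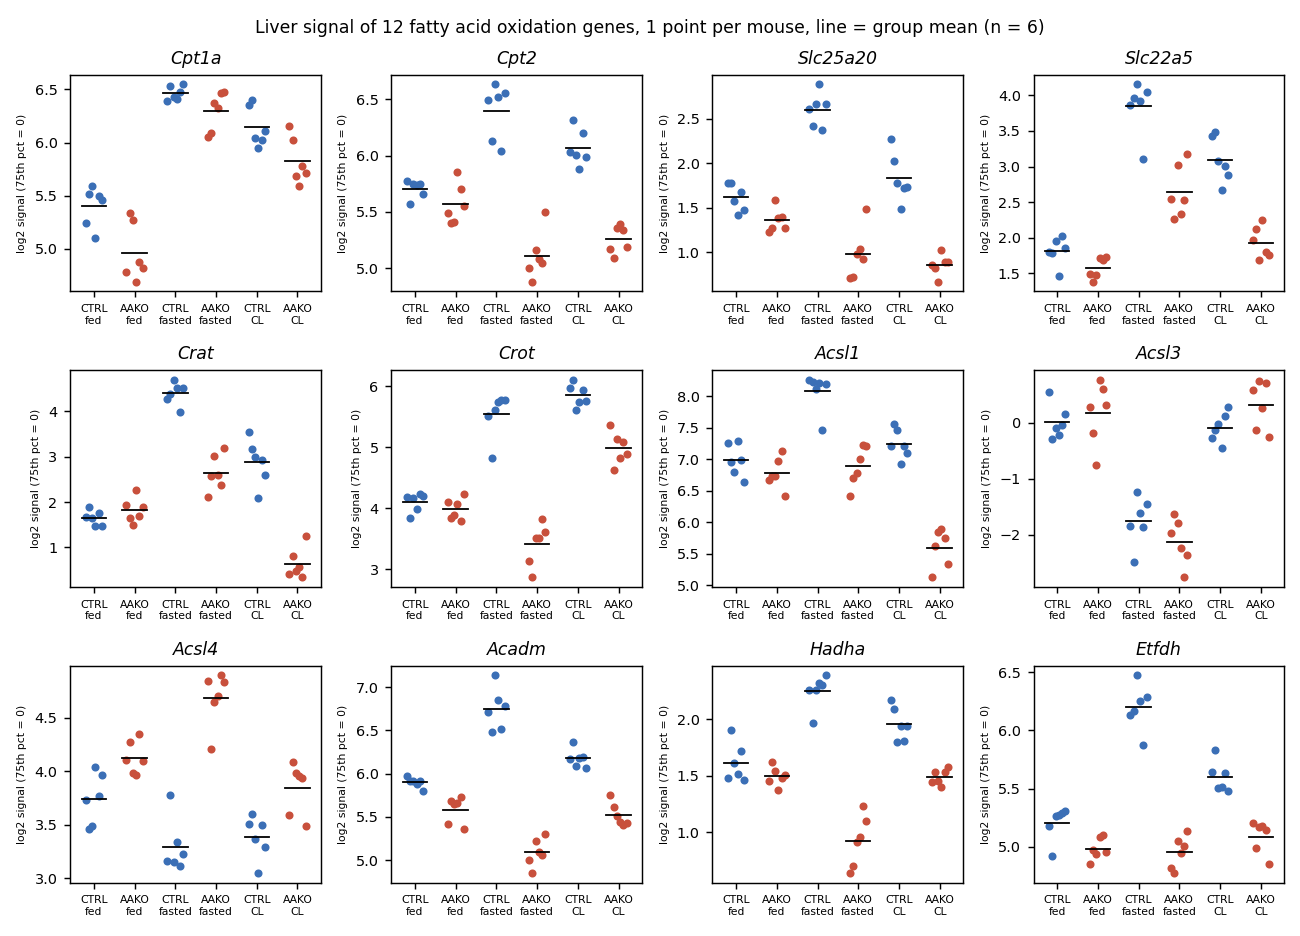
Log2 signal of 12 members relative to the array's 75th percentile (vertical axis) in the 6 groups (horizontal axis, CL for CL316243), 1 point per mouse, CTRL in blue and AAKO in red, with the group mean as a line. Cpt1a rose on fasting in both genotypes, Cpt2, Slc25a20, Acadm and Hadha rose in CTRL and fell in AAKO, and Acsl4 was highest in fasted AAKO mice.

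The acyl-CoA dehydrogenases carry out the first step of each cycle, and all 10 had a lower mean in fasted AAKO than in fasted CTRL liver. Acadvl, for very long chains, averaged 6.87, 7.26 and 7.03 in CTRL and 6.81, 6.64 and 6.77 in AAKO mice (SD 0.0416 to 0.125). Acadl, for long chains, averaged 4.28, 5.19 and 4.45 in CTRL and 4.16, 4.31 and 3.98 in AAKO mice (SD 0.0660 to 0.198). Acadm, for medium chains, averaged 5.90, 6.75 and 6.18 in CTRL and 5.58, 5.09 and 5.53 in AAKO mice (SD 0.0585 to 0.240). Acads, for short chains, averaged 4.09, 4.12 and 4.22 in CTRL and 3.98, 3.63 and 3.90 in AAKO mice (SD 0.0721 to 0.172). Acadsb, which acts in isoleucine breakdown, averaged 2.51, 1.99 and 2.19 in CTRL and 2.44, 1.72 and 2.40 in AAKO mice (SD 0.112 to 0.216). Acad8, which acts in valine breakdown, averaged 2.96, 3.09 and 3.01 in CTRL and 2.83, 2.69 and 3.00 in AAKO mice (SD 0.0505 to 0.139). Acad9, also an assembly factor of respiratory complex I, averaged 3.37, 3.32 and 3.35 in CTRL and 3.45, 3.06 and 3.57 in AAKO mice (SD 0.0746 to 0.206). Acad10, a less studied family member, averaged 1.31, 1.20 and 1.11 in CTRL and 1.06, 0.68 and 0.89 in AAKO mice (SD 0.107 to 0.302). Acad11, a dehydrogenase of longer chains, averaged 5.94, 6.71 and 6.09 in CTRL and 5.77, 5.25 and 5.53 in AAKO mice (SD 0.0815 to 0.222). Acad12, a further relative, averaged -1.33, -1.01 and -1.28 in CTRL and -1.33, -1.33 and -1.26 in AAKO mice (SD 0.103 to 0.224), read from a probe on a cDNA clone and not on its RefSeq transcript.

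The later steps of the cycle and the auxiliary enzymes come next. Hadha averaged 1.62, 2.25 and 1.96 in CTRL and 1.49, 0.92 and 1.49 in AAKO mice (SD 0.0666 to 0.226), and Hadhb, from the other side of the shared promoter region, averaged 5.17, 6.08 and 5.54 in CTRL and 5.02, 4.81 and 4.98 in AAKO mice (SD 0.0600 to 0.185). Hadh, the short-chain 3-hydroxyacyl-CoA dehydrogenase, averaged 4.77, 4.63 and 5.04 in CTRL and 4.52, 2.96 and 4.12 in AAKO mice (SD 0.0910 to 0.311). Echs1, the short-chain enoyl-CoA hydratase, averaged 5.61, 5.35 and 5.48 in CTRL and 5.48, 5.32 and 5.42 in AAKO mice (SD 0.0442 to 0.0988). Acaa2, the mitochondrial 3-ketoacyl-CoA thiolase, averaged 8.56, 8.45 and 8.57 in CTRL and 8.48, 7.72 and 8.30 in AAKO mice (SD 0.0979 to 0.159). Eci1, the isomerase for unsaturated chains, averaged 5.69, 6.19 and 5.85 in CTRL and 5.36, 4.43 and 5.22 in AAKO mice (SD 0.0298 to 0.258). Decr1, the 2,4-dienoyl-CoA reductase for unsaturated chains, averaged 6.52, 7.02 and 6.76 in CTRL and 6.36, 5.80 and 6.08 in AAKO mice (SD 0.0734 to 0.321).

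Electron transfer and uncoupling complete the set. Etfa, the alpha subunit of the electron transfer flavoprotein, averaged 6.60, 6.59 and 6.58 in CTRL and 6.54, 6.04 and 6.54 in AAKO mice (SD 0.0660 to 0.159), and Etfb, its beta subunit, averaged 7.64, 7.76 and 7.74 in CTRL and 7.62, 7.01 and 7.58 in AAKO mice (SD 0.0423 to 0.139). Etfdh, the dehydrogenase that passes their electrons to ubiquinone, averaged 5.21, 6.20 and 5.60 in CTRL and 4.98, 4.96 and 5.09 in AAKO mice (SD 0.0944 to 0.198). Ucp2, a mitochondrial carrier of the uncoupling protein family, averaged -1.41, -0.95 and -1.56 in CTRL and -1.24, -0.21 and -1.86 in AAKO mice (SD 0.249 to 0.685). In the flavoprotein subunits fasted AAKO liver alone stood lower, whereas Etfdh was raised in fasted CTRL liver and had close means in fed and fasted AAKO liver.

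In fed mice the genotypes were compared first. None of the 35 members was called in either direction by limma, where 0.0412% of all genes were called higher and 0.0371% lower. Over all genes 52.6% of the calls were higher here, and 66.7% with the authors' value table. At an unadjusted p under 0.05 there were 10 members, 9 of them lower in AAKO mice, against 6.77% of all genes. The median difference of the members was -0.12 on the log2 scale, beside 0.00 for all genes. Acadm was the 1 member whose arrays did not overlap, as for 0.656% of all tested genes (log2 fold change -0.32, SE 0.0858, adjusted p = 0.244). Cpt1a ran from 5.10 to 5.59 (median 5.48) in CTRL and from 4.69 to 5.34 (median 4.85) in AAKO mice, so that the groups overlapped, with log2 fold change -0.44, SE 0.114, adjusted p = 0.200. Cpt2 ran from 5.57 to 5.77 (median 5.74) and from 5.40 to 5.85 (median 5.52) in the same order, again with overlap, and log2 fold change -0.14, SE 0.103, adjusted p = 0.830.

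In CTRL mice 18 of 35 members rose on fasting and 6 fell, where 20.9% of all genes were called higher and 22.4% lower. The members' median was 0.39, beside -0.02 for all genes. By role, all 7 genes of the carnitine system rose, as did 5 of 10 dehydrogenases, 4 of 7 later enzymes and 1 of 3 electron transfer genes, whereas 4 of 7 synthetases fell. Some of these counts depend on the probe. With the mean of all kept probes the synthetase genes Acsm3 (0.71) and Acsl5 (0.36) were also called higher, and Acad9 (-0.52) was called lower. Crat ran from 1.47 to 1.88 (median 1.65) in fed and from 3.98 to 4.69 (median 4.44) in fasted mice, without overlap (log2 fold change 2.74, SE 0.192, adjusted p = 7.30e-13). For Cpt1b the arrays ran from -3.32 to -2.91 (median -3.03) fed and from -1.88 to -0.17 (median -0.76) fasted (log2 fold change 2.28, SE 0.299, adjusted p = 2.04e-07). Slc22a5 ran from 1.46 to 2.02 (median 1.83) fed and from 3.10 to 4.16 (median 3.95) fasted (log2 fold change 2.03, SE 0.164, adjusted p = 1.57e-11). In each of these carnitine genes every fasted array was above every fed array. Cpt1a, at 6.39 to 6.55 (median 6.45) in fasted mice, rose as well (log2 fold change 1.06, SE 0.114, adjusted p = 5.19e-09), and so did Cpt2, at 6.04 to 6.63 (median 6.51) (log2 fold change 0.69, SE 0.103, adjusted p = 1.73e-06). Acsl3 fell, the fed arrays lying at -0.29 to 0.56 (median -0.06) and the fasted arrays at -2.49 to -1.23 (median -1.72), without overlap (log2 fold change -1.76, SE 0.236, adjusted p = 3.03e-07). Acsm1 fell, the fed arrays lying at 4.43 to 4.74 (median 4.64) and the fasted arrays at 3.38 to 4.32 (median 3.82), also without overlap (log2 fold change -0.80, SE 0.112, adjusted p = 6.07e-07). Acsm5, at 2.66 to 3.30 (median 3.20) fed and 1.97 to 2.67 (median 2.37) fasted, overlapped slightly (log2 fold change -0.72, SE 0.115, adjusted p = 5.78e-06). Without CTRL fasted replicate 2, which stood apart, 19 members rose and 6 fell.

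In AAKO mice the balance was turned: 6 of 35 members rose on fasting and 25 fell, where 27.8% of all genes were called higher and 35.7% lower. The members' median was -0.39, beside -0.09. All 7 later enzymes and 8 of 10 dehydrogenases fell, as did 2 of 3 electron transfer genes and 5 of 7 synthetases, and the carnitine system split into 4 that rose and 3 that fell. With the mean of all kept probes Acsm3 was at 0.36, Acsl5 at 0.02 and Acad8 at 0.04 here. Echs1 lost its call under 4 of 14 other settings, 1 of which gave 0.02. Acad8 lost its call under 12 of 14 other settings and without any 1 of 8 arrays (AAKO fed replicates 2, 3 and 5, AAKO fasted replicates 1, 2, 3, 5 and 6). The genes that rose were Cpt1a, Cpt1b, Slc22a5, Crat, Acsl4 and Ucp2. Cpt1a was at 6.05 to 6.48 (median 6.35) in fasted AAKO mice, above every fed array (log2 fold change 1.34, SE 0.114, adjusted p = 8.27e-12). Cpt1b rose, the fed arrays lying at -3.86 to -2.66 (median -2.93) and the fasted arrays at -2.41 to -1.34 (median -2.00) (log2 fold change 1.11, SE 0.299, adjusted p = 0.00171). Slc22a5 rose, the fed arrays lying at 1.38 to 1.73 (median 1.59) and the fasted arrays at 2.26 to 3.17 (median 2.54) (log2 fold change 1.06, SE 0.164, adjusted p = 1.15e-06). Neither of these carnitine genes overlapped between the fed and fasted groups. Acsl3 fell, the fed arrays lying at -0.75 to 0.77 (median 0.30) and the fasted arrays at -2.76 to -1.62 (median -2.11) (log2 fold change -2.30, SE 0.236, adjusted p = 4.38e-10). Acsm5 fell, the fed arrays lying at 2.65 to 3.18 (median 3.04) and the fasted arrays at 1.15 to 1.61 (median 1.37) (log2 fold change -1.65, SE 0.115, adjusted p = 9.57e-14). Hadh fell, the fed arrays lying at 4.39 to 4.64 (median 4.53) and the fasted arrays at 2.56 to 3.37 (median 2.95) (log2 fold change -1.55, SE 0.119, adjusted p = 7.39e-13). No array of a fasted AAKO mouse reached the fed range for these 3 genes. Cpt2, which rose in CTRL mice, fell here, with fasted arrays at 4.88 to 5.50 (median 5.07) and overlap (log2 fold change -0.46, SE 0.103, adjusted p = 0.000256).

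**Figure D2:**
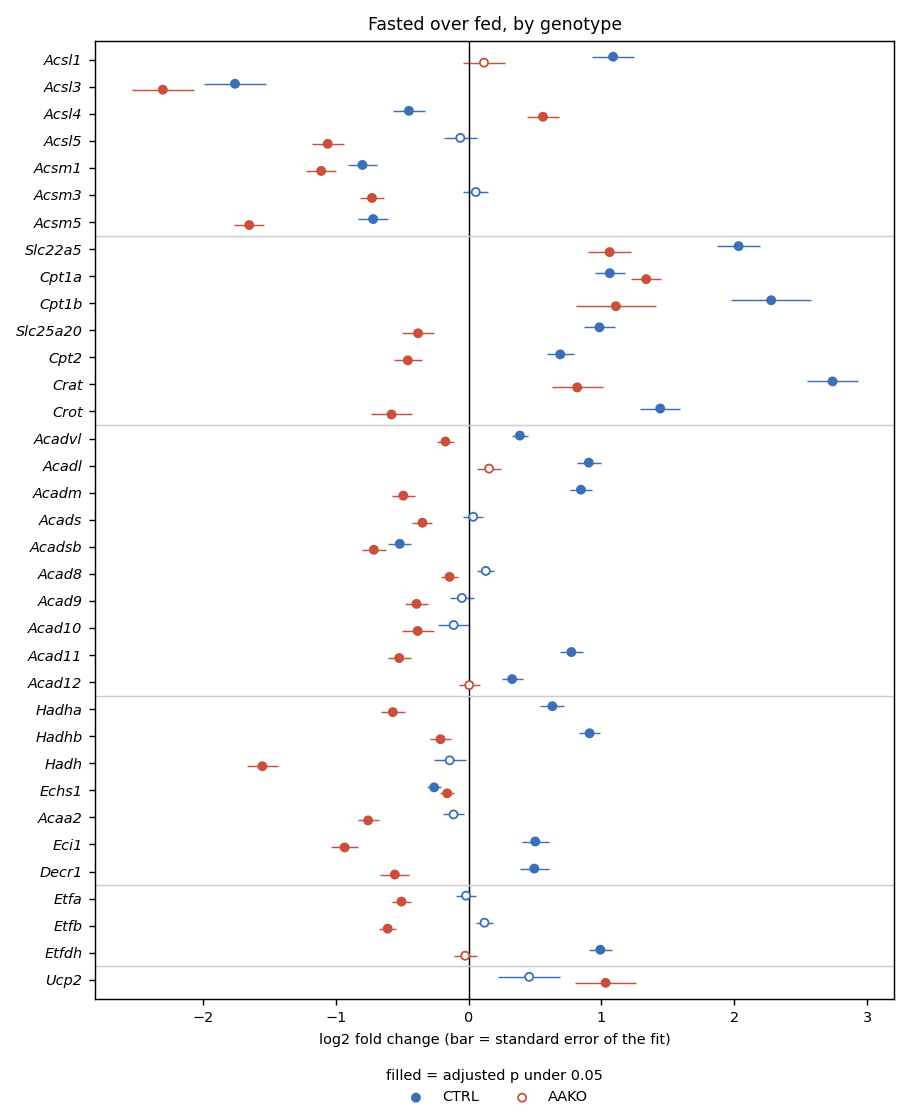
Log2 fold change of fasted over fed mice (horizontal axis) for the 35 members (vertical axis, by role, grey lines between roles) in CTRL (blue) and AAKO mice (red), with the standard error of the fit and filled points for adjusted p under 0.05. In CTRL mice 18 members rose and 6 fell, and in AAKO mice 6 rose and 25 fell.

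The genotype by fasting interaction tested that contrast directly: it was called lower in 27 of 35 members and higher in 1, where 14.5% of all genes were called higher and 19.4% lower. A group of 10 members rose in CTRL and fell in AAKO mice, each with a called interaction: Cpt2, Slc25a20, Crot, Acadm, Acadvl, Acad11, Hadha, Hadhb, Eci1 and Decr1. With the mean of all kept probes the fasted over fed value in AAKO mice was 0.40 for Acad11 and 0.18 for Hadhb. Hadhb also lost its fall in AAKO mice without any 1 of 4 arrays (AAKO fasted replicates 1, 2 and 3, AAKO fed replicate 5), and Acadvl lost it under 5 of 14 other settings and without AAKO fasted replicate 2. Another 4 (Acsl1, Acadl, Acad12, Etfdh) rose in CTRL mice and were not called in AAKO mice, each also with a called interaction. The Acad12 probe on the RefSeq transcript gave -0.16 in CTRL mice, against 0.33. With the mean of all kept probes, Acad12 fell in AAKO mice (-0.325, adjusted p = 0.000477) and Etfdh rose (0.685, adjusted p = 9.16e-07). Acadl rose in AAKO mice with quantile normalization (0.281, adjusted p = 0.00415) and with the authors' value table (0.299, adjusted p = 0.00363). Crot had log2 fold change -2.02, SE 0.213, adjusted p = 1.92e-08, Crat log2 fold change -1.92, SE 0.271, adjusted p = 1.94e-06 and Eci1 log2 fold change -1.44, SE 0.142, adjusted p = 7.41e-09. For Cpt2 the interaction was -1.15 ± 0.145 (SE), with adjusted p = 3.80e-07. Acsl4 alone went the other way (log2 fold change 1.01, SE 0.172, adjusted p = 2.95e-05): it fell on fasting in CTRL and rose in AAKO mice. Cpt1a had no called interaction (log2 fold change 0.27, SE 0.161, adjusted p = 0.199), with a 95% interval from -0.06 to 0.60. Without CTRL fasted replicate 2 the count was 27 lower and 2 higher. Cpt1b lost its interaction call without any 1 of 4 arrays, in turn AAKO fasted replicate 2, CTRL fasted replicates 6 and 4 and AAKO fed replicate 5.

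Among fasted mice, AAKO liver had less of nearly all of these transcripts than CTRL liver: 29 of 35 members were lower and 2 higher, where 21.3% of all genes were called higher and 28.0% lower. For 26 members no array of one genotype lay within the range of the other, as for 21.3% of all tested genes. The members' median was -0.87, beside -0.04 for all genes. All 10 dehydrogenases and all 3 electron transfer genes were lower, as were 6 of 7 later enzymes, 6 of 7 carnitine genes and 4 of 7 synthetases. Among the dehydrogenases, Acad8 was at 0.09 and Acadsb at -0.05 with the mean of their probes, neither called, and Acad9 lost its call under 3 of 14 other settings. Crot ran from 4.82 to 5.78 (median 5.68) in CTRL and from 2.87 to 3.82 (median 3.51) in AAKO mice (log2 fold change -2.13, SE 0.151, adjusted p = 9.39e-13). Eci1 ran from 5.77 to 6.46 (median 6.28) and from 4.12 to 4.74 (median 4.47) in the same order (log2 fold change -1.76, SE 0.1, adjusted p = 9.28e-15). Crat, at 2.10 to 3.19 (median 2.58) in AAKO mice, was 3.36 times lower than in CTRL (log2 fold change -1.75, SE 0.192, adjusted p = 5.91e-09). The lowest CTRL array was above the highest AAKO array for each of these genes. Cpt2 was lower as well (log2 fold change -1.29, SE 0.103, adjusted p = 1.15e-11), and the trifunctional subunits differed by -1.32 ± 0.0895 (SE) for Hadha and -1.27 ± 0.0789 for Hadhb. Cpt1a was not called (log2 fold change -0.17, SE 0.114, adjusted p = 0.237), with a 95% interval from -0.40 to 0.07. Acsl4 was higher in AAKO mice, at 4.21 to 4.90 (median 4.77) against 3.11 to 3.78 (median 3.20), without overlap (log2 fold change 1.39, SE 0.122, adjusted p = 7.21e-11). Ucp2 was higher too, at -0.65 to 0.29 (median -0.15) against -1.75 to 0.08 (median -1.13), with overlap (log2 fold change 0.75, SE 0.231, adjusted p = 0.00770), and was not called when the fit held only the 2 groups (adjusted p = 0.0538). Ucp2 is also known from leukocytes, and 4 of 5 neutrophil markers were higher in the same comparison, whose part in its difference was not tested. The call counts were the same without CTRL fasted replicate 2, at 29 lower and 2 higher.

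**Figure D3:**
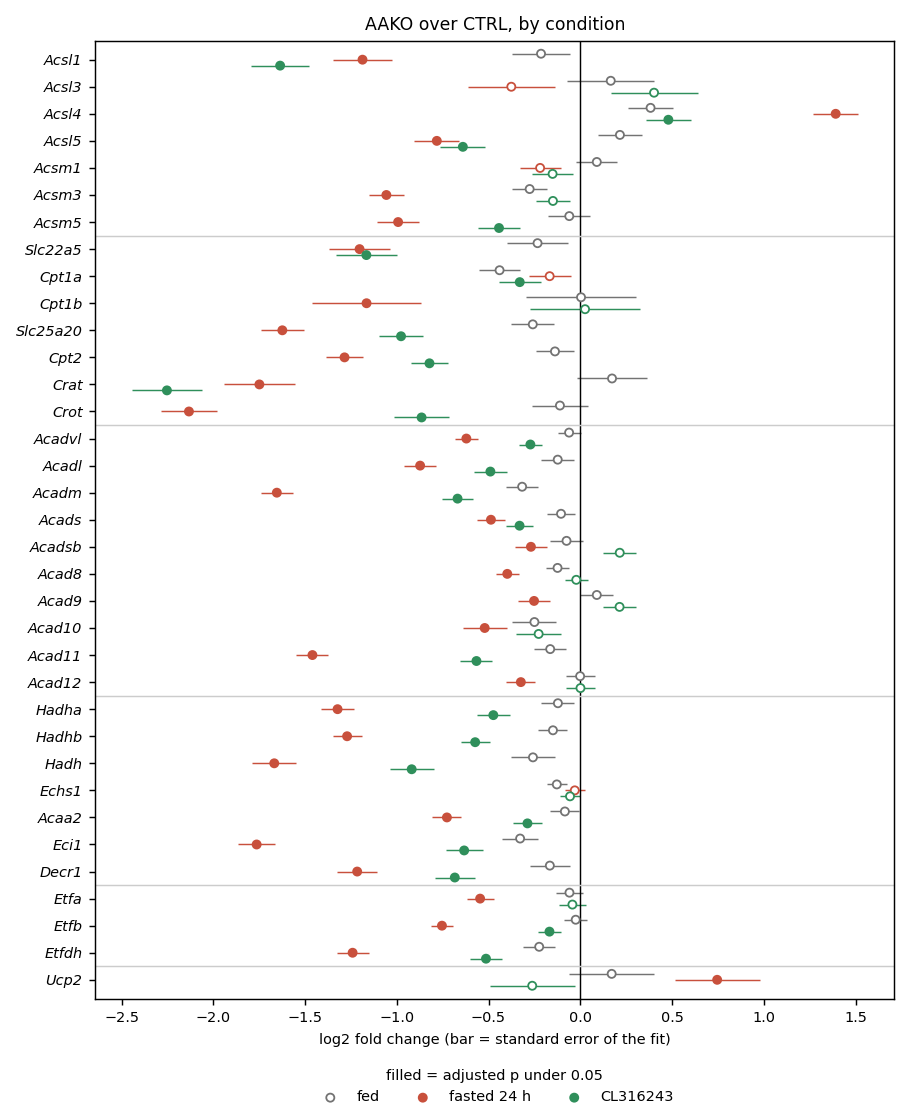
Log2 fold change of AAKO over CTRL mice (horizontal axis) for the 35 members (vertical axis, by role) in fed (grey), fasted (red) and CL316243-treated mice (green), with standard errors and filled points for adjusted p under 0.05. No member was called in fed mice, 31 were called in fasted mice and 23 after CL316243.

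Given to fed CTRL mice, CL316243 went with 10 members higher and 3 lower than in fed mice, where 10.4% of all genes were called higher and 12.8% lower. The members' median was 0.16, beside -0.03. The genes that rose were 5 of the carnitine system, Acsl5, Acadm, both trifunctional subunits and Etfdh. Crot, at 3.83 to 4.23 (median 4.17) in fed mice, was at 5.61 to 6.10 (median 5.85) after the agonist (log2 fold change 1.75, SE 0.151, adjusted p = 1.62e-09). Slc22a5 reached 2.68 to 3.48 (median 3.05) (log2 fold change 1.28, SE 0.164, adjusted p = 1.14e-06) and Crat 2.09 to 3.54 (median 2.96) (log2 fold change 1.24, SE 0.192, adjusted p = 1.84e-05). All arrays after the agonist were above all fed arrays for these 3 genes. Cpt1a reached 5.95 to 6.40 (median 6.07) (log2 fold change 0.75, SE 0.114, adjusted p = 1.56e-05) and Cpt2 5.88 to 6.32 (median 6.02) (log2 fold change 0.37, SE 0.103, adjusted p = 0.00922), neither overlapping with fed mice, though Cpt2 was not called within either wash batch (adjusted p = 0.141 and 0.106). The other Cpt2 probe gave -0.03 here, and the mean of the Cpt2 probes gave 0.17 and was not called (adjusted p = 0.373). The genes that fell did so by little. Acsl4, at 3.47 to 4.04 (median 3.75) fed and 3.05 to 3.61 (median 3.43) treated, overlapped (log2 fold change -0.36, SE 0.122, adjusted p = 0.0311). Acsl4 lost this call under 8 of 14 other settings and without any 1 of 5 arrays (CTRL fed replicates 4 and 6, CTRL CL316243 replicates 3, 4 and 6). Acsm3, at 3.32 to 3.56 (median 3.42) and 3.00 to 3.29 (median 3.08), did not overlap (log2 fold change -0.34, SE 0.0939, adjusted p = 0.00898). Acsm3 lost its call within each wash batch and with the mean of its probes. Acadsb, at 2.38 to 2.74 (median 2.49) and 2.04 to 2.32 (median 2.21), did not overlap either (log2 fold change -0.32, SE 0.0883, adjusted p = 0.00850), but the mean of its probes gave 0.04.

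In AAKO mice CL316243 went with 2 members higher and 9 lower, where 15.7% of all genes were called higher and 15.7% lower. The members' median was -0.09, beside -0.01. Crot, at 3.79 to 4.23 (median 3.98) in fed mice, rose, with treated arrays at 4.63 to 5.36 (median 4.98) (log2 fold change 1.00, SE 0.152, adjusted p = 5.67e-06), although its other probe gave a value below 0, as described with the probes. Cpt1a rose, the fed arrays lying at 4.69 to 5.34 (median 4.85) and the treated arrays at 5.59 to 6.16 (median 5.74) (log2 fold change 0.86, SE 0.115, adjusted p = 8.53e-07). Crat, which rose in CTRL mice, fell, the fed arrays lying at 1.503 to 2.27 (median 1.79) and the treated arrays at 0.35 to 1.25 (median 0.53) (log2 fold change -1.19, SE 0.193, adjusted p = 1.49e-05). Acsl1 fell, the fed arrays lying at 6.41 to 7.12 (median 6.73) and the treated arrays at 5.13 to 5.90 (median 5.68) (log2 fold change -1.17, SE 0.160, adjusted p = 1.21e-06). Neither Crat nor Acsl1 overlapped between treated and fed AAKO mice. Acsm5 fell, with treated arrays at 2.25 to 2.70 (median 2.47) and overlap (log2 fold change -0.53, SE 0.116, adjusted p = 0.000666), and Cpt2 fell, at 5.09 to 5.40 (median 5.27) without overlap (log2 fold change -0.32, SE 0.103, adjusted p = 0.0176). The count moved from 11 called members to 7 without AAKO fed replicate 4, and Cpt2 was among those lost (adjusted p = 0.0652). Decr1 (-0.28) lost its call under 9 of 14 other settings and without any 1 of 9 arrays. Acad11 (-0.25) lost its call under 3 of 14 other settings and without any 1 of 5 arrays. Without AAKO CL316243 replicate 6, which carried muscle transcripts, 3 members were higher and 8 lower. In that fit Decr1 and Acad11 were not called (adjusted p = 0.119 and 0.0647). Acad8 was called higher and Ucp2 lower instead (adjusted p = 0.0167 and 0.0160).

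**Figure D4:**
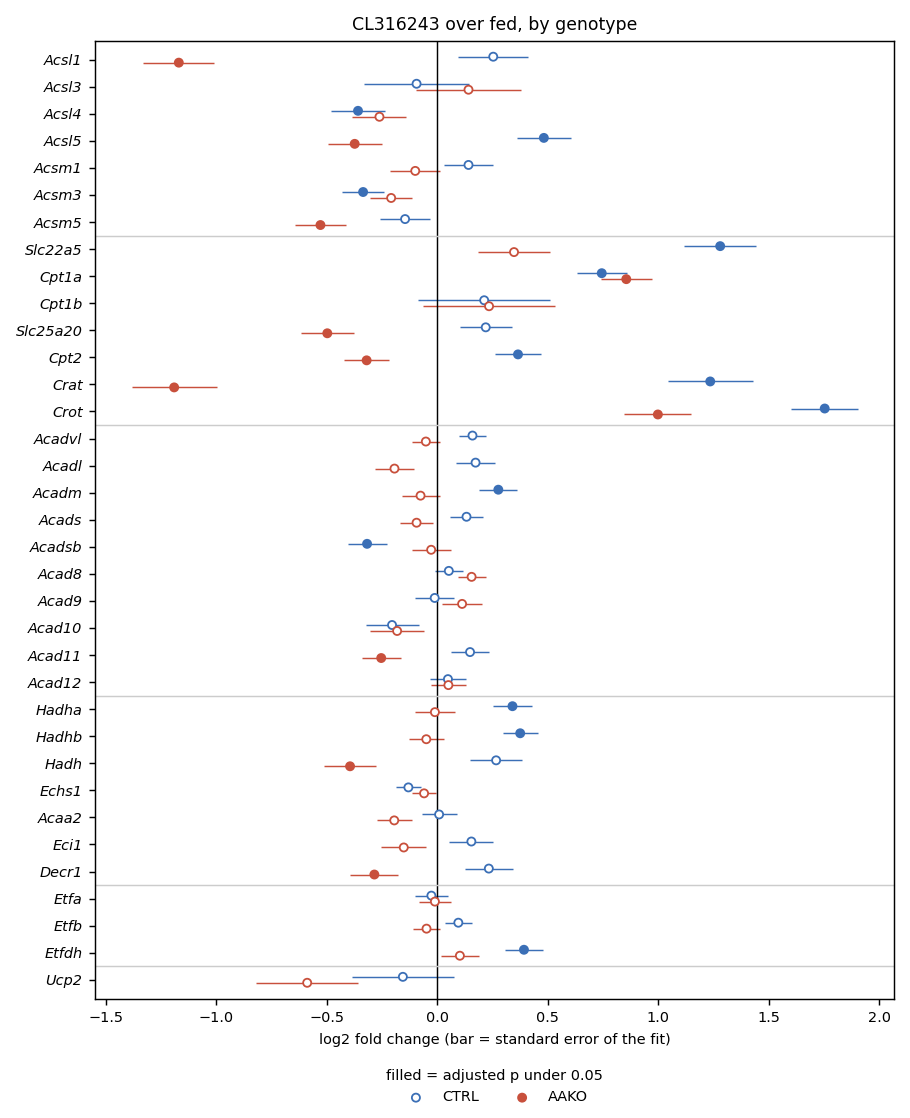
Log2 fold change of CL316243 over fed mice (horizontal axis) for the 35 members (vertical axis, by role) in CTRL (blue) and AAKO mice (red), with standard errors and filled points for adjusted p under 0.05. In CTRL mice 10 members rose and 3 fell, and in AAKO mice 2 rose and 9 fell.

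The genotype by CL316243 interaction was called lower in 11 members and higher in 0 by limma, where 6.34% of all genes were called higher and 4.52% lower (58.4% of calls higher, and 44.1% with the authors' value table). The called members were 5 carnitine genes (Crat, Slc22a5, Crot, Slc25a20, Cpt2), 2 synthetases (Acsl1, Acsl5), 3 later enzymes (Hadh, Hadhb, Decr1) and Acad11. A second Acsl5 probe gave 0.41 here, where the representing probe gave -0.86. Crat had log2 fold change -2.43, SE 0.272, adjusted p = 6.06e-07 and Acsl1 log2 fold change -1.42, SE 0.226, adjusted p = 5.99e-05. For Slc22a5 the interaction was -0.93 ± 0.232 (SE, adjusted p = 0.00713) and for Cpt2 -0.68 ± 0.146 (SE, adjusted p = 0.00172). Cpt1a was not called (log2 fold change 0.11, SE 0.162, adjusted p = 0.757), with a 95% interval from -0.22 to 0.44. Without AAKO CL316243 replicate 6, Acad11 and Decr1 lost their calls (adjusted p = 0.0580 and 0.0512) and 9 members stayed called. Within wash batch 1 there were 4 calls and within wash batch 2, which holds 2 of the 6 treated AAKO mice, 1; Slc22a5 and Cpt2 were called in neither.

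After CL316243 the genotypes differed in 23 members, 22 lower in AAKO mice and 1 higher, where 13.4% of all genes were called higher and 11.3% lower (54.3% of calls higher, and 42.3% with the authors' value table). The members' median was -0.33, beside 0.03, and the arrays did not overlap for 19 members, as for 11.5% of all tested genes. By role, 6 of 7 carnitine genes, 6 of 7 later enzymes, 5 of 10 dehydrogenases, 3 of 7 synthetases and 2 of 3 electron transfer genes were lower. Of these Etfb (-0.17, adjusted p = 0.0454) lost its call under 7 of 14 other settings and without any 1 of 7 arrays (CTRL CL316243 replicates 1, 2 and 5, AAKO CL316243 replicates 1, 4, 5 and 6). Acsl5 (-0.64) lost its call within wash batch 2 and with the mean of its probes, and its second probe gave 0.64. Crat was 4.77 times lower in AAKO mice (log2 fold change -2.25, SE 0.193, adjusted p = 6.37e-10). Acsl1, at 6.93 to 7.56 (median 7.202) in CTRL mice, was 3.11 times lower (log2 fold change -1.64, SE 0.160, adjusted p = 6.98e-09). Slc22a5, at 1.69 to 2.24 (median 1.88) in AAKO mice, was lower as well (log2 fold change -1.17, SE 0.165, adjusted p = 3.07e-06), as was Cpt2 (log2 fold change -0.82, SE 0.103, adjusted p = 4.97e-07). No arrays overlapped for these 4 genes. Acsl4 was higher, at 3.49 to 4.09 (median 3.95) against 3.05 to 3.61 (median 3.43), with overlap (log2 fold change 0.48, SE 0.122, adjusted p = 0.00382). Cpt1a was lower, with overlap (log2 fold change -0.33, SE 0.115, adjusted p = 0.0332), and lost its call without AAKO CL316243 replicate 6 (adjusted p = 0.0705), without any 1 of 5 other arrays in turn (AAKO CL316243 replicates 3, 4 and 5, CTRL CL316243 replicates 1 and 2) and under 5 of 14 other settings. Without replicate 6 there were 20 lower and 1 higher.

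Cpt1b, the muscle isoform, lay apart on the array that carried muscle transcripts. In AAKO mice after CL316243 it was at -0.85 on replicate 6 and at -3.32 to -3.03 on the other 5. On that array Acta1 was at 4.88 and Tnnt3 at 5.70, against highest values of -4.42 and -2.07 on the other 35 arrays, whereas the probe of Myh4 was at -3.34, within the range of the others. The genotype difference of Cpt1b after CL316243 was 0.03 with that array and -0.34 without it (adjusted p = 0.964 and 0.297). The fasted level of Cpt1b over CL316243 in AAKO mice was 0.87 with it and 1.24 without it (adjusted p = 0.0128 and 1.59e-05), and lost its call under 3 of 14 other settings. In fasted CTRL liver, where Cpt1b was highest, Ckm was not well above background on any array.

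**Figure D5:**
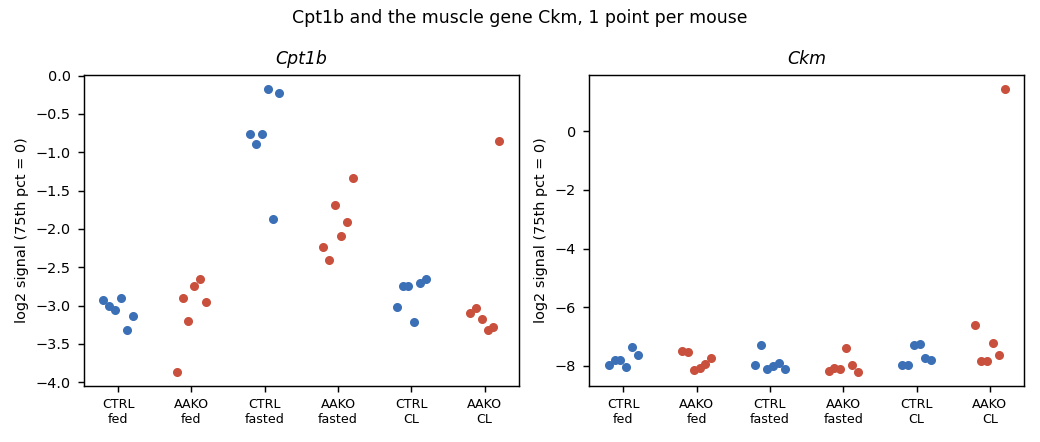
Log2 signal relative to the array's 75th percentile (vertical axis) of Cpt1b (left) and the muscle gene Ckm (right) in the 6 groups (horizontal axis), 1 point per mouse. AAKO CL316243 replicate 6 stands at -0.85 for Cpt1b and 1.45 for Ckm, above the other 5 arrays of its group.

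Fasting and CL316243 were compared within experiment 1. In CTRL mice 18 members were higher and 5 lower in fasted than in treated mice, where 19.2% of all genes were called higher and 17.6% lower; the members' median was 0.26, beside 0.01. Cpt1b, at -3.22 to -2.65 (median -2.74) after the agonist, had log2 fold change 2.07, SE 0.299, adjusted p = 1.71e-06. Crat had log2 fold change 1.504, SE 0.192, adjusted p = 2.08e-07, and neither of these genes overlapped. Acsl1, at 7.46 to 8.26 (median 8.20) in fasted mice, overlapped through replicate 5 (log2 fold change 0.84, SE 0.159, adjusted p = 8.99e-05). Acsl3, at -0.46 to 0.28 (median -0.07) after the agonist, was lower in fasted mice (log2 fold change -1.67, SE 0.236, adjusted p = 1.23e-06). Acsm1, at 4.63 to 4.84 (median 4.76), was lower too (log2 fold change -0.94, SE 0.112, adjusted p = 5.98e-08), and so was Acsm5, at 2.72 to 3.06 (median 2.94) (log2 fold change -0.57, SE 0.115, adjusted p = 0.000176). These 3 synthetases did not overlap. Cpt1a (log2 fold change 0.32, SE 0.114, adjusted p = 0.0273) and Cpt2 (log2 fold change 0.32, SE 0.103, adjusted p = 0.0126) were higher by less, with overlap. Cpt1a lost that call without any 1 of 5 arrays (CTRL fasted replicates 2 and 6, CTRL CL316243 replicates 3, 4 and 5) and within each wash batch.

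In AAKO mice the same comparison gave 8 members higher and 19 lower in fasted mice, where 26.2% of all genes were called higher and 33.8% lower (43.6% of calls higher, and 58.1% with the authors' value table); the members' median was -0.27, beside -0.08. Crat had log2 fold change 2.01, SE 0.193, adjusted p = 1.50e-10. Ucp2, at -2.15 to -1.22 (median -1.95) after the agonist, had log2 fold change 1.62, SE 0.232, adjusted p = 3.83e-07. Acsl1, at 6.41 to 7.22 (median 6.89) in fasted mice, had log2 fold change 1.28, SE 0.160, adjusted p = 2.91e-08. For these genes every fasted array was above every treated array. Acsl3, at -0.26 to 0.76 (median 0.43) after the agonist, was lower in fasted mice (log2 fold change -2.44, SE 0.237, adjusted p = 1.90e-10). Crot had log2 fold change -1.58, SE 0.152, adjusted p = 1.49e-10, and Hadh, at 3.97 to 4.26 (median 4.15) after the agonist, had log2 fold change -1.16, SE 0.119, adjusted p = 6.77e-10. Cpt1a was higher in fasted mice (log2 fold change 0.48, SE 0.115, adjusted p = 0.000544), and Cpt2 was not called (log2 fold change -0.14, SE 0.103, adjusted p = 0.255). Without AAKO CL316243 replicate 6 there were 8 higher and 21 lower.

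Whether the genotype difference was larger in fasted than in treated mice was tested as the third interaction, which was called lower in 23 members and higher in 2, where 12.7% of all genes were called higher and 19.6% lower (39.3% of calls higher, and 54.9% with the authors' value table). Here 8 of 10 dehydrogenases, 6 of 7 later enzymes, all 3 electron transfer genes, 4 of 7 carnitine genes and 2 of 7 synthetases were lower. Crot had log2 fold change -1.27, SE 0.214, adjusted p = 2.79e-05, Eci1 log2 fold change -1.13, SE 0.142, adjusted p = 4.11e-07 and Cpt1b log2 fold change -1.19, SE 0.424, adjusted p = 0.0297. Without replicate 6 of treated AAKO mice, Cpt1b was at -0.82 (adjusted p = 0.0389), and it lost the call without any 1 of 4 arrays (AAKO fasted replicate 2, CTRL fasted replicates 4 and 6, CTRL CL316243 replicate 4). Ucp2 (log2 fold change 1.01, SE 0.327, adjusted p = 0.0174) and Acsl4 (log2 fold change 0.91, SE 0.173, adjusted p = 0.000123) were higher. Cpt2 was called (log2 fold change -0.46, SE 0.146, adjusted p = 0.0142), though not in the authors' value table (adjusted p = 0.0586), and Cpt1a was not (log2 fold change 0.16, SE 0.162, adjusted p = 0.485). Crat, Acsl1, Acsl5 and Slc22a5 had no called difference of this kind from their representing probes, at 0.50, 0.45, -0.14 and -0.04 on the log2 scale. With the mean of all kept probes Acsl1 was called higher by limma (1.363, adjusted p = 0.000804). The second Slc22a5 probe gave 0.58.

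The array carries 67 probes for the members, more than 1 for 22 of them, and in several genes the probes disagreed. For Crot, the values above are from a probe on the RefSeq transcript at chr5:8966430-8966489 of mm9; a dimmer probe, on an Ensembl transcript at chr5:8986251-8986310, gave -1.55 for CL316243 over fed AAKO mice where the first gave 1.00, and -2.66 for fasted AAKO over CTRL mice where the first gave -2.13. For Acsl1 a dimmer probe on another Ensembl transcript stood out from background on 2 of 6 arrays of treated AAKO mice and on 6 of 6 in each other group. For Acsl5 a probe on a cDNA clone gave 0.56 for fasted AAKO over CTRL mice, where the first gave -0.78. The same clone probe gave 0.64 for AAKO over CTRL mice after CL316243, against -0.64. In CL316243 over fed CTRL mice it gave -0.01, against 0.48. For Etfdh a second probe gave 1.40 for fasted over fed AAKO mice, where the first gave -0.02. Acad11 and Hadhb likewise each had at least 1 probe on an Ensembl transcript that was higher in fasted than in fed AAKO mice (1.38 and 1.08), against -0.52 and -0.21 from the first probe. Acad9 was read from a probe on an Ensembl transcript, and its 2 probes on the RefSeq transcript gave -0.69 and -0.72 for fasted AAKO over CTRL mice, against -0.25. Acad8 had a second probe, on an Ensembl transcript, at 0.58 in that comparison, against -0.40 from the first. For Acadsb a probe on a cDNA clone gave 0.33 there, against -0.27. For Acsm3 a probe on a cDNA clone gave 1.45 for fasted over fed AAKO mice, against -0.73. A second Slc22a5 probe, on the same RefSeq transcript as the first, gave -0.36 for fasted AAKO over CTRL mice, against -1.20. In the genotype by fasting interaction that probe gave -0.13, against -0.97. The Cpt2, Crat, Etfb, Acsm1 and Ucp2 probes had the same sign in the fasted and CL316243 genotype comparisons, and Cpt1a has 1 probe.

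Genes around the pathway were counted by list; between fasted genotypes 21.3% of all genes were higher and 28.0% lower in AAKO mice, and after CL316243 13.4% and 11.3%. In ketone body synthesis, Bdh1 and Acat1 were lower in fasted AAKO than in fasted CTRL liver, Bdh1, the last enzyme of the path, at -3.67 ± 0.245 (SE, adjusted p = 2.87e-13) and Acat1, the thiolase of its first step, at -1.96 ± 0.0986 (SE, adjusted p = 8.81e-16). All 10 peroxisomal genes were lower in fasted AAKO mice, with the bifunctional enzyme Ehhadh at -3.58 ± 0.238 (SE, adjusted p = 2.61e-13) and the thiolase Acaa1b at -2.55 ± 0.187 (SE, adjusted p = 1.87e-12), and 8 of 10 were lower after CL316243. Of 18 other genes of mitochondrial oxidation and fatty acid supply, 5 were higher and 11 lower in fasted AAKO mice, with the thioesterase Acot2 at -2.77 ± 0.286 (SE, adjusted p = 1.84e-09) and the fatty acid binding protein Fabp1 at -1.47 ± 0.168 (SE, adjusted p = 1.32e-08); after CL316243, 8 were lower. Among 12 regulators, 7 were higher and 2 lower in fasted AAKO mice, with Lpin1, a coactivator of PPARα as well as a phosphatidate phosphatase, at 3.20 ± 0.476 (SE, adjusted p = 1.33e-06), and the coactivator genes Ppargc1b at 1.78 ± 0.293 (SE, adjusted p = 6.76e-06) and Ppargc1a at 0.94 ± 0.242 (SE, adjusted p = 0.00160). Lpin1 varied widely in fasted CTRL mice, from 2.22 to 6.06 (SD 1.48), against 6.48 to 6.76 in fasted AAKO mice. After CL316243, 1 regulator was higher and 5 lower, with Pparg at -1.32 ± 0.191 (SE, adjusted p = 4.59e-06), Ppara at -1.21 ± 0.134 (SE, adjusted p = 5.31e-08) and Creb3l3, a liver transcription factor of fasting, at -0.96 ± 0.0777 (SE, adjusted p = 2.61e-10). Both Ppara and Creb3l3 also had a lower mean in AAKO among fasted mice. Ppara averaged 5.16 in fasted CTRL and 4.59 in fasted AAKO mice, with overlap, and Creb3l3 6.95 and 6.15, without overlap. In CTRL mice fasting raised all 10 peroxisomal genes, where 20.9% of all genes rose, and in AAKO mice it lowered 6 of them, where 35.7% of all genes fell. In fed mice no gene of the peroxisomal, other and regulator lists was called by limma between genotypes. At an unadjusted p under 0.05, in either direction, there were 4 of 10 peroxisomal, 6 of 18 other and 1 of 12 regulator genes. The regulator count was near the share of all genes given above for fed mice.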

How the data were processed

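Total liver RNA of 36 mice was labelled with Cy3 and hybridised to 1-colour Agilent arrays; the deposited scanner files give spot intensities made with Agilent Feature Extraction 10.10.1.1, per the submitters' processing notes, which also name limma. From the deposited processed intensity, log2 values were taken and each array's 75th percentile over non-control probes was subtracted. Spots marked as outliers (0.127%) were left out, spots of a probe were averaged, and each gene was read from its probe with the highest mean. Genes well above background on at least 5 of 6 arrays of a group were tested: 24251 of 37325. The authors' deposited value table holds log2-like values whose sorted values are identical within each group and whose column medians run from 6.878 to 7.014. Such medians are not those of values centred to 0 by gene. The 36 columns of that value table matched their own arrays best (r from 0.99881 to 0.99981, 36898 probes). It was used as an alternative only.

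One limma model (limma 3.58.1, R 4.3.3) of 6 group means plus the wash batch of the labels gave all 12 comparisons, with Benjamini-Hochberg adjustment over all tested genes and calls at an adjusted p under 0.05. Because of the batch term, a fold change can differ slightly from the difference of means. Tested on simulated data for fasted AAKO against CTRL mice over 24251 genes, the model recovered 37% of changed genes at a log2 change of 0.5 and 79% at 1, with 3 false calls. The simulation raised 200 genes in fasted AAKO mice only, with independent normal noise and no batch effect. In the real comparison 5169 genes were called higher and 6794 lower, so these rates do not carry over to it. The number of arrays limits the precision. The labels do not say whether the mice of a group were litter mates, and p-values measure the spread between these mice.

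Members and gene lists were chosen with earlier results of these data known. Every member is given with its 6 group means; ranges and full statistics are given, in each comparison, for the 3 highest and the 3 lowest called members and for Cpt1a and Cpt2. Other genes are counted by list, with values for at most 4 per list and comparison, besides the fasted means of Ppara and Creb3l3. The ketone body list is not counted, since 1 of its genes is not reported here. Alternatives were the normalization, background correction, filter, value table, batch terms, wash batches apart, probes averaged, only the groups compared, the replicate number as a block and each array left out. Symbols and sequences are from RefSeq (GRCm38.p6); probe positions are those of the array files (mm9). Titles share replicate numbers between groups, but in no comparison did every same-numbered pair correlate above 0.1, so the numbers were not taken to pair mice.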

Additional observations from a re-analysis of the deposited data

Results flagged for a closer look

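In 17 of the 210 groups of 6 arrays checked (8.1%), over 15 members, 1 array lay far from the other 5 by Dixon's test; chance flags about 1 in 20 groups. All values are log2 signals relative to the array's 75th percentile. CTRL fasted replicate 2 accounted for 4 of them: Crot at 4.82 (others 5.51 to 5.78), Acsl4 at 3.78 (others 3.11 to 3.34), Hadh at 4.02 (others 4.66 to 4.83) and Hadha at 1.96 (others 2.26 to 2.39). AAKO CL316243 replicate 6 accounted for 3 of them: Cpt1b at -0.85 (others -3.32 to -3.03), Acadvl at 6.61 (others 6.77 to 6.85) and Ucp2 at -1.22 (others -2.15 to -1.89). Slc22a5 was at 3.10 in CTRL fasted replicate 5, where the other 5 lay at 3.87 to 4.16. Acsl1 was at 7.46 in CTRL fasted replicate 5, where the other 5 lay at 8.11 to 8.26. Acsl4 was at 4.21 in AAKO fasted replicate 2, where the other 5 lay at 4.64 to 4.90. Acsm5 was at 2.65 in AAKO fed replicate 6, where the other 5 lay at 3.00 to 3.18. Acadsb was at 2.67 in AAKO CL316243 replicate 4, where the other 5 lay at 2.31 to 2.40. Acad10 was at 0.33 in AAKO fasted replicate 2, where the other 5 lay at 0.68 to 0.80. Acad10 was at 0.69 in CTRL CL316243 replicate 5, where the other 5 lay at 1.11 to 1.31. Hadhb was at 5.09 in AAKO CL316243 replicate 1, where the other 5 lay at 4.92 to 4.98. Acaa2 was at 8.81 in CTRL CL316243 replicate 2, where the other 5 lay at 8.46 to 8.57. Etfdh was at 4.93 in CTRL fed replicate 2, where the other 5 lay at 5.18 to 5.31.

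The change on fasting differed between the genotypes in 28 members by the limma interaction, at an adjusted p under 0.05. The value for each is the log2 response of AAKO mice minus that of CTRL mice. Among the synthetases it was Acsl1 -0.97, Acsl4 1.01, Acsl5 -0.998 (second probe 0.32), Acsm3 -0.78 (second probe 0.07) and Acsm5 -0.93. Among the carnitine genes it was Slc22a5 -0.97 (second probe -0.13), Cpt1b -1.17, Slc25a20 -1.37, Cpt2 -1.15, Crat -1.92 and Crot -2.02. Among the dehydrogenases it was Acadvl -0.56, Acadl -0.75, Acadm -1.34, Acads -0.38, Acad8 -0.27 (second probe 0.46), Acad9 -0.34, Acad11 -1.30 and Acad12 -0.32. Among the later enzymes it was Hadha -1.20, Hadhb -1.12, Hadh -1.41, Acaa2 -0.64, Eci1 -1.44 and Decr1 -1.05. Among the electron transfer genes it was Etfa -0.49, Etfb -0.73 and Etfdh -1.02.

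After CL316243 the change from fed mice differed between the genotypes in 11 members by the same test, all lower in AAKO mice. For the synthetases it was Acsl1 -1.42 and Acsl5 -0.86 (0.41 from a second Acsl5 probe). For the carnitine genes it was Slc22a5 -0.93, Slc25a20 -0.72, Cpt2 -0.68, Crat -2.43 and Crot -0.75. For the dehydrogenases it was Acad11 -0.40. For the later enzymes it was Hadhb -0.43, Hadh -0.66 and Decr1 -0.52.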

How the results depend on the processing

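Over the 12 comparisons and 14 alternative settings, 160 of 168 counts of called members stayed within 1.5 times the main count. The other 8 came from fits within 1 wash batch, which hold fewer arrays. AAKO against CTRL mice after CL316243 gave 14 within wash batch 2 (23 in all). CL316243 against fed CTRL mice gave 4 within wash batch 1 and 4 within wash batch 2 (13 in all), and against fed AAKO mice 4 within wash batch 2 (11 in all). Fasted against CL316243 in CTRL mice gave 14 within wash batch 1 (23 in all). The genotype by CL316243 interaction gave 4 within wash batch 1 and 1 within wash batch 2 (11 in all), and the interaction of genotype with fasting or CL316243 gave 12 within wash batch 1 (25 in all).

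Of 1092 values of named members under these settings, 1045 kept direction and side of the threshold, 44 lost the call (29 of them within a wash batch), 1 gained it and 2 reversed. With the mean of all kept probes, Acadsb was at 0.038 for CL316243 over fed CTRL mice and Crot at -0.274 for CL316243 over fed AAKO mice, where probes of each gene disagree. Leaving out 1 array at a time gave counts of 0 to 0 for the genotypes fed, 31 to 32 fasted and 21 to 23 after CL316243; 24 to 25 for fasting in CTRL and 28 to 31 in AAKO mice; 12 to 13 for CL316243 in CTRL and 7 to 12 in AAKO mice; 21 to 24 for fasting against CL316243 in CTRL and 26 to 29 in AAKO mice; and 27 to 29, 9 to 13 and 24 to 26 for the interactions with fasting, with CL316243 and with fasting or CL316243. None of those 1152 values reversed and 21 lost the call.

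With the replicate number as a block, the genotypes differed in 22 members after CL316243 (23 without) and fasting in AAKO mice changed 30 (31 without); no count moved by over 1.5 times. In no comparison did more than 5 of 12 arrays lie closest to the array of their own number. Of the 4 other scalings, the authors' value table moved the median of all genes by over 0.1, in 2 comparisons: by 0.132 to 0.053 for fasting against CL316243 in AAKO mice, and by 0.109 to 0.022 for the interaction of genotype with fasting or CL316243. Every member's representing probe was well above background, though not every other probe; the fits with fed mice cannot separate condition from experiment.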
